A study of Homo sapiens with 15 samples.

Results

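NKX2-1, the FOXA and HNF4 genes and GATA6 encode transcription factors that set lung, gut and liver identity. They were followed here, together with the forkhead gene FOXD1, in A549 cells treated with geldanamycin. A549 is a human lung carcinoma line with epithelial features, and geldanamycin blocks the ATP site of the chaperone HSP90. The factors were chosen with earlier results of these data known. Their probe sets were taken by name, as those annotated to exactly 1 of the 8 symbols, current or former, by gene ID. This gave 13 probe sets for 7 of the 8 genes, among 54613 probe sets and 19775 genes in all. HNF4A is not analysed here. The 2 probe sets named TTF1 belong to another gene, a transcription termination factor that shares a former symbol of NKX2-1, and were not used. The brightest probe set of a gene is the main one, and the others are given beside it.

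Total RNA was hybridised to 15 Affymetrix arrays, 3 in each of 5 groups, all of unmodified A549 cells seeded 24 h before treatment. Cells harvested at 24 h had received DMSO vehicle or 40 nM geldanamycin. Cells harvested at 48 h had received DMSO vehicle, 10 nM or 40 nM geldanamycin. The submitters give 40 nM as the IC50 and 10 nM as the IC20. The model is a single cell line, and nothing in the labels says that the 3 replicates were separate cultures, so the p-values rest on a spread among arrays that may be purely technical. In such bulk RNA, fewer cells with a transcript and less transcript per cell cannot be told apart.

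Some background helps in reading the values. NKX2-1 is the homeodomain factor that marks lung and thyroid fate and drives surfactant genes in alveolar cells. FOXA1, FOXA2 and FOXA3 are forkhead factors that open chromatin at foregut and liver enhancers, and HNF4A and HNF4G are nuclear receptors of liver, gut and kidney epithelium. GATA6 is a zinc finger factor of endoderm. FOXD1 is a forkhead factor best known from kidney stroma and the developing retina, so it stands outside the lung and gut-liver set by its known role. Lung adenocarcinomas that lose NKX2-1 are known to take on gut-like expression, in which FOXA and HNF4 factors take part.

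FOXD1 and FOXA3 passed the test in both comparisons of 40 nM with vehicle, FOXD1 lower and FOXA3 higher, so the sequences just before their starts are shown. They are the 250 bases before the RefSeq transcription start, 5′ to 3′ on the strand of the gene, in build GRCh38.p14. FOXD1 lies on the minus strand at chr5:73448778-73449027 and FOXA3 on the plus strand at chr19:45864076-45864325. Capitals mark matches to 3 motifs that were chosen after these sequences had been seen: TGTTTAC, a forkhead site; GAANNTTC, a pair of heat shock element units; and TATAA, the core of a TATA box.
FOXD1: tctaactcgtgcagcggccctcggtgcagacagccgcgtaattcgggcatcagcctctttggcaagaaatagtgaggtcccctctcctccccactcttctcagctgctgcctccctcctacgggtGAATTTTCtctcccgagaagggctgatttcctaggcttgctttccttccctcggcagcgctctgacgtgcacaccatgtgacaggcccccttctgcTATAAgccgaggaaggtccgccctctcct
FOXA3: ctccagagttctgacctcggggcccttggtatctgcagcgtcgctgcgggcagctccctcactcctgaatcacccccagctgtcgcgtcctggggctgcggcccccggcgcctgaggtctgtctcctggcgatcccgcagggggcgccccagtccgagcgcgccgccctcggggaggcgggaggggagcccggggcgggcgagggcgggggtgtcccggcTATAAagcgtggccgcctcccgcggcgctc
The FOXD1 window held GAATTTTC, a match to GAANNTTC, 125 bases before the start, and TATAA 29 bases before it. The FOXA3 window held TATAA 30 bases before the start, and neither window held TGTTTAC. Both strands were searched, and no match overlapped another. Of 35116 RefSeq windows of this length, 5.78% held GAANNTTC, 18.9% held TATAA and 2.98% held TGTTTAC. Windows for FOXA1, GATA6 and NKX2-1 were matched as well. Of these, 1 of the 2 NKX2-1 windows held TGTTTAC, 130 bases before that start. A match is a run of letters and says nothing about binding.

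Values are log2 RMA values, so a difference of 1 is a 2-fold difference. The mean over all probe sets was 5.13 to 5.14 on every array of 24 h and 5.52 on every array of 48 h, a step that separate RMA runs for the 2 times would leave. Values are compared within a time only. Every group was made of arrays that correlated over genes at 0.994 or more. The 10 nM arrays stood apart from the rest. Their poly-A spike controls averaged 3.47 ± 0.09 (SD, n = 3) against 5.80 ± 0.06 for the vehicle at 48 h. On them the 3′ probe set of ACTB exceeded the 5′ one by 2.68 ± 0.03 against 0.35 ± 0.06, while for GAPDH this was 0.13 ± 0.004 against 0.15 ± 0.03. The part of this difference in any 10 nM result was not tested.

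As a check of the labelled lung epithelial cells, KRT8, KRT18 and KRT7 of simple epithelium averaged 12.65, 13.72 and 13.03 over the 15 arrays, above the level of 99% of genes. KRT19 averaged 6.73 and CDH1 8.59, and the other 3 of the 8 epithelial markers, EPCAM at 4.89, CLDN4 at 4.93 and CLDN7 at 4.36, were dim by the level given next. Of the alveolar type 2 markers, SFTPD, LAMP3 and SLC34A2 lay below the 40th percentile of gene means, a log2 value of 5.10 that is used below to call a gene dim, and SFTPB, SFTPC, ABCA3 and NAPSA lay above it. All 6 measured leukocyte markers and 7 of 8 endothelial markers were dim, as were 4 of 8 fibroblast markers and 5 of 8 hepatocyte markers. Single markers moved. Of the 8 epithelial markers, 5 rose and 1 fell in each comparison of 40 nM with vehicle, and 2 rose and 2 fell at 10 nM. CDH1 rose by 2.80 at 24 h, 2.82 at 10 nM and 1.78 at 40 nM and 48 h. The changes of KRT7, in the same order, were -0.90, -0.45 and -0.38, and those of KRT19 were 0.81, -2.41 and 0.64, and all passed. Of the 8 fibroblast markers, 2 rose and 0 fell at 24 h. At 10 nM 0 rose and 3 fell, and at 40 nM and 48 h 1 rose and 1 fell. Among them LUM fell by 3.45 ± 0.15 at 10 nM and by 0.84 ± 0.15 at 40 nM at 48 h. The leukocyte integrin ITGAM rose by 1.11 ± 0.09 and 1.21 ± 0.09 there. The mean over the fibroblast markers ran from 5.48 to 5.51 in the vehicle at 48 h, from 4.78 to 4.92 at 10 nM and from 5.32 to 5.39 at 40 nM. The mean over the leukocyte markers ran from 4.17 to 4.33, from 4.35 to 4.42 and from 4.50 to 4.65 in the same groups.

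**Figure D1:**
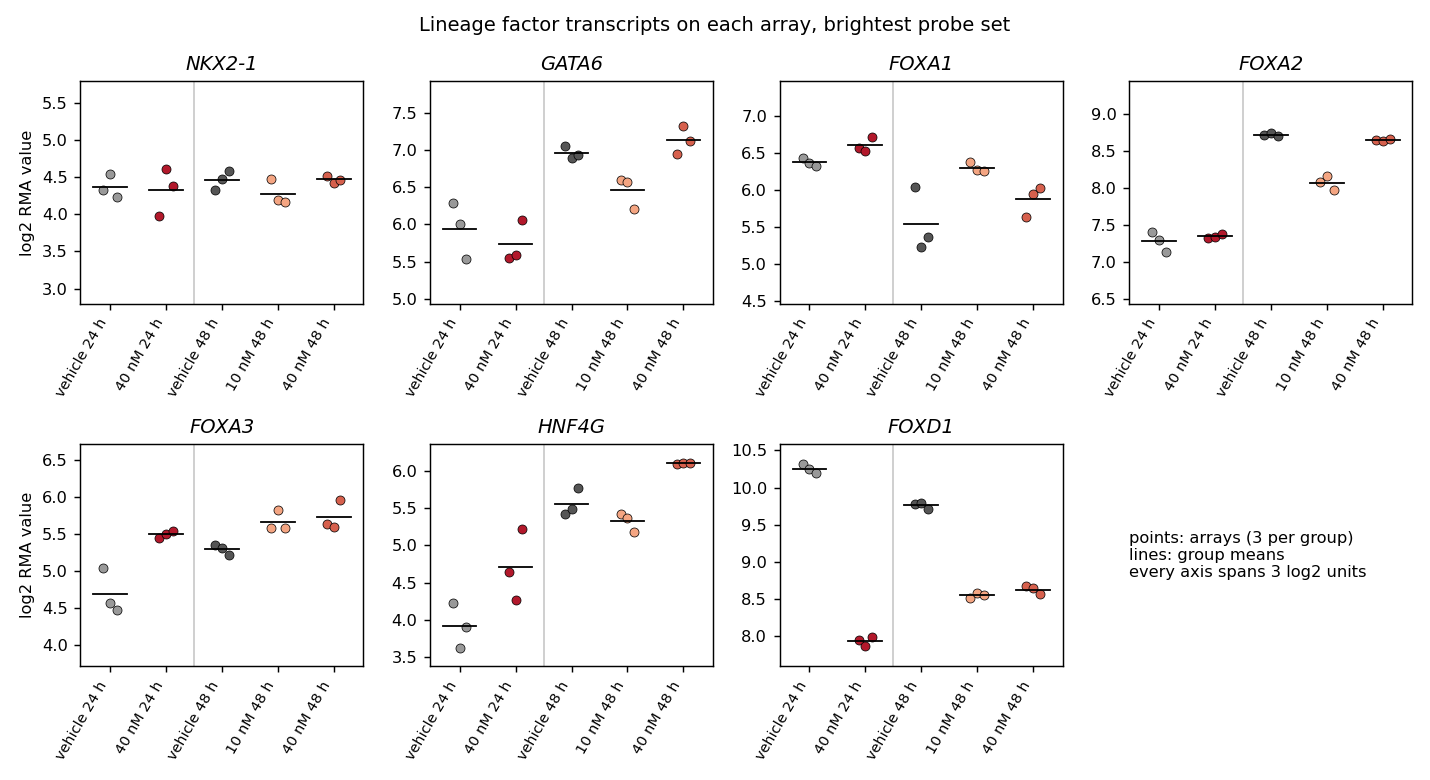
Log2 RMA value of the brightest probe set of each factor on each of the 15 arrays (points) with group means (lines); every vertical axis spans the same number of log2 units, and the grey line parts the times. FOXD1 is the factor whose treated arrays, between 7.87 and 8.67, lie farthest from their vehicles, between 9.71 and 10.31.

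FOXD1 had the largest change of the 7 measured factors in each comparison with vehicle. The factors were chosen with earlier results of these data known, so this rank may follow from the choice. On the vehicle arrays at 24 h its values were 10.31, 10.25 and 10.20, and after 24 h at 40 nM they were 7.94, 7.87 and 7.99. The groups were far apart, and the replicates of each lay close together. The fall was 2.32 ± 0.06 on the log2 scale (SE), or 4.99-fold (limma adjusted p = 5.37e-12). At 48 h the vehicle arrays read 9.78, 9.79 and 9.71, the 10 nM arrays 8.51, 8.58 and 8.55, and the 40 nM arrays 8.67, 8.64 and 8.56. Neither treated group overlapped with the vehicle, and the treated groups overlapped with each other. FOXD1 fell by 1.21 ± 0.06 at 10 nM (2.32-fold, limma adjusted p = 1.94e-09) and by 1.14 ± 0.06 at 40 nM (2.20-fold, limma adjusted p = 7.69e-09). These comparisons share the vehicle arrays of 48 h.

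The doses were then set against each other at 48 h. FOXD1 was at 8.62 ± 0.06 (SD, n = 3) at 40 nM and 8.55 ± 0.03 at 10 nM, a difference of 0.08 with a 95% interval from -0.04 to 0.20 (limma adjusted p = 0.40). A further fall at the higher dose was not detected, and the interval bounds it at 0.04. With time the effect of 40 nM did differ. The fall at 48 h was smaller than that at 24 h by 1.18 ± 0.08 (95% interval 1.01 to 1.35, limma adjusted p = 6.29e-07), and a step common to all arrays of a time cancels in this contrast. A difference in scale between the times would not cancel, and its part was not tested. FOXD1 is read by 1 probe set, whose name ends in _s_at, a type that may bind more than 1 transcript, and no other probe set was at hand to check it.

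Genes with a profile near that of FOXD1 were sought over the 9 treated arrays, each taken minus the vehicle mean of its time. The nearest was CCN2, a secreted matrix protein known as a target of the Hippo pathway, with a root mean square difference of 0.27 log2 units. NT5E, an ecto-nucleotidase, followed at 0.32, and ADAM19, a membrane metalloprotease, at 0.33. CCN2 fell by 1.91 ± 0.09 at 24 h, by 1.13 ± 0.09 at 10 nM and by 1.03 ± 0.09 at 40 nM at 48 h. In the same order the changes were -2.54 ± 0.11, -1.51 ± 0.11 and -0.76 ± 0.11 for NT5E and -1.98 ± 0.06, -0.88 ± 0.06 and -0.82 ± 0.06 for ADAM19. The measure selects for such likeness, so these values describe the selection.

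**Figure D2:**
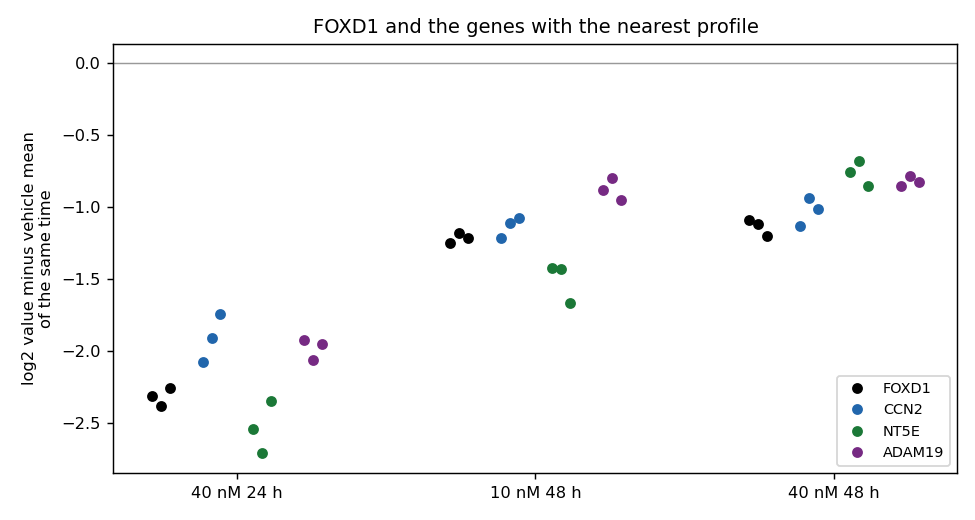
Log2 value minus the vehicle mean of the same time for FOXD1 and the 3 genes nearest to it, with 1 point per treated array. All points lie below 0, and for each gene the arrays at 24 h lie lowest. NT5E departs most between the doses at 48 h, with falls of 1.51 at 10 nM and 0.76 at 40 nM. With the mean of the NT5E probe sets the 40 nM arrays differed from the 10 nM arrays by -0.08, which did not pass.

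Among the lung and endoderm factors, NKX2-1 was dim in every group. Its brightest probe set averaged 4.38 over the 15 arrays, at the 30.5th percentile of gene means. The vehicle arrays at 24 h read 4.33, 4.54 and 4.23, and those at 40 nM read 3.98, 4.61 and 4.38. At 48 h the vehicle arrays read 4.32, 4.47 and 4.59, the 10 nM arrays 4.47, 4.19 and 4.17, and the 40 nM arrays 4.52, 4.42 and 4.47. All groups overlapped within a time. The changes were -0.04 ± 0.14 at 24 h, -0.18 ± 0.14 at 10 nM and 0.01 ± 0.14 at 40 nM at 48 h, and none passed (limma adjusted p = 0.86, 0.42 and 0.98). The 95% intervals ran from -0.34 to 0.25, from -0.48 to 0.12 and from -0.29 to 0.31. The second probe set changed by between 0.06 and 0.15 against vehicle and passed in no comparison. At such levels an array gives little room to see a fall.

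GATA6 passed in the comparison of the doses. Its brightest probe set read 6.29, 6.0 and 5.53 in the vehicle at 24 h and 5.55, 5.59 and 6.06 at 40 nM, and these overlapped (-0.21 ± 0.18, limma adjusted p = 0.46). At 48 h it read 7.06, 6.89 and 6.93 in the vehicle, 6.59, 6.57 and 6.21 at 10 nM and 6.95, 7.33 and 7.13 at 40 nM. The 10 nM arrays were lowest and overlapped with neither of the others. GATA6 was higher at 40 nM than at 10 nM by 0.68 ± 0.18 (1.60-fold, limma adjusted p = 0.013). That call was lost when replicate 3 at 10 nM (adjusted p = 0.062) or replicate 2 at 40 nM (0.061) was left out, and the mean of the gene's probe sets gave 0.26. Against vehicle the values were -0.50 ± 0.18 at 10 nM (limma adjusted p = 0.059), which passed under 6 of 16 alternatives, and 0.17 ± 0.18 at 40 nM (0.64). The dimmer probe set gave -0.01 and -0.17 there and -0.16 between the doses, none of which passed.

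The FOXA genes did not move as a group. FOXA1, the pioneer factor of foregut and hormone-responsive epithelium, rose at the lower dose. Its brightest probe set read 6.03, 5.22 and 5.36 in the vehicle at 48 h, 6.37, 6.26 and 6.26 at 10 nM and 5.63, 5.95 and 6.03 at 40 nM. The 10 nM arrays lay above every vehicle array, and the 40 nM arrays overlapped with the vehicle through its replicate 1. The rise at 10 nM was 0.76 ± 0.16 (1.69-fold, limma adjusted p = 0.0028), and its dim second probe set rose by 0.47 ± 0.09 (adjusted p = 0.0013 over all probe sets). The floor at the 20th percentile of all values left 0.06 of the latter, which did not pass. At 40 nM and 48 h the change was 0.33 ± 0.16 (limma adjusted p = 0.19), and without replicate 1 of the vehicle it was 0.58 and passed (adjusted p = 0.0019). Set against 10 nM directly, the 40 nM arrays differed by -0.43 ± 0.16. This did not pass (limma adjusted p = 0.071) but did so under 5 of 16 alternatives. The dim probe set differed between the doses by -0.34 ± 0.09 and passed (limma adjusted p = 0.014), and by -0.06, not passing, with that floor. At 24 h FOXA1 read 6.43, 6.36 and 6.32 in the vehicle and 6.57, 6.52 and 6.70 at 40 nM, and the difference of 0.23 ± 0.16 did not pass (limma adjusted p = 0.35), while the mean of the probe sets, 0.33, did (0.0087). The dim probe set rose there by 0.42 ± 0.09 (adjusted p = 0.0024), and by 0.02, not passing, with that floor.

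FOXA2, the FOXA member most tied to foregut endoderm, fell at 10 nM. Its brightest probe set read 8.71, 8.74 and 8.71 in the vehicle at 48 h, 8.08, 8.16 and 7.97 at 10 nM and 8.65, 8.63 and 8.66 at 40 nM. The 10 nM arrays stood clear below both other groups. FOXA2 fell by 0.65 ± 0.07 against vehicle (1.57-fold, limma adjusted p = 6.41e-06) and was higher by 0.57 ± 0.07 at 40 nM than at 10 nM (limma adjusted p = 2.36e-05). A second probe set annotated to the same accession fell by 0.64 ± 0.08, and the dimmest gave -0.03 ± 0.11. Those 2 brighter sets share a sequence and are not independent readings. At 40 nM the changes of the brightest probe set were -0.07 ± 0.07 at 48 h and 0.07 ± 0.07 at 24 h (limma adjusted p = 0.57 and 0.52), with 95% intervals from -0.22 to 0.07 and from -0.08 to 0.22. At 24 h the vehicle read 7.40, 7.30 and 7.14 and the treated arrays 7.33, 7.34 and 7.39, which overlapped.

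FOXA3, the FOXA member most tied to liver and gut, rose at 40 nM. It is read by 1 probe set, at the 43.4th percentile of gene means. The vehicle arrays at 24 h read 5.04, 4.57 and 4.47 and the treated arrays 5.44, 5.50 and 5.54, with no overlap. The rise was 0.80 ± 0.13 (1.74-fold, limma adjusted p = 0.00029). At 48 h the vehicle arrays read 5.35, 5.30 and 5.22, the 10 nM arrays 5.57, 5.82 and 5.57 and the 40 nM arrays 5.64, 5.59 and 5.96. Both treated groups lay above the vehicle and overlapped with each other. FOXA3 rose by 0.44 ± 0.13 at 40 nM (limma adjusted p = 0.030), and was 0.36 ± 0.13 above vehicle at 10 nM, which did not pass (0.059) but did so under 4 of 16 alternatives. The call at 48 h ended without any 1 of the vehicle arrays (adjusted p = 0.055, 0.069 and 0.10 without replicates 1, 2 and 3) and without replicate 3 of the 40 nM arrays (0.14). It ended too with array medians subtracted (0.053). The doses differed by 0.07 ± 0.13, with a 95% interval from -0.21 to 0.36, and the effects of 40 nM at the 2 times by -0.36 ± 0.19 (limma adjusted p = 0.25). Without replicate 1 of the vehicle at 24 h, the highest of its group, the latter was -0.53 and passed (adjusted p = 0.021).

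HNF4G, a nuclear receptor of gut and kidney epithelium, rose after 24 h at 40 nM. Its brightest probe set read 4.23, 3.62 and 3.89 in the vehicle and 4.64, 4.27 and 5.21 at 40 nM. The groups did not overlap, though the lowest treated array lay just above the highest vehicle array. The rise was 0.79 ± 0.20 (1.73-fold, limma adjusted p = 0.0058). With the arrays of these groups alone it did not pass (adjusted p = 0.055), and the mean of the probe sets gave 0.45. At 48 h the probe set read 5.42, 5.49 and 5.78 in the vehicle, 5.42, 5.37 and 5.19 at 10 nM and 6.09, 6.11 and 6.11 at 40 nM. The 40 nM arrays lay above both other groups, which overlapped. HNF4G was higher at 40 nM than at 10 nM by 0.78 ± 0.20 (1.72-fold, limma adjusted p = 0.0082), or 0.37 with the mean of the probe sets, which also passed. Against vehicle it was 0.54 ± 0.20 higher at 40 nM (limma adjusted p = 0.066) and at 10 nM it was at -0.24 ± 0.20 (0.47). The 40 nM value passed under 6 of 17 alternatives. The dimmer probe set read 3.0 or less on every array, gave 0.11 ± 0.07 at 24 h and 0.19 ± 0.07 at 40 nM and 48 h, neither passing, and rose by 0.23 ± 0.07 at 10 nM (adjusted p = 0.032), a rise that vanished with the floor.

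**Figure D3:**
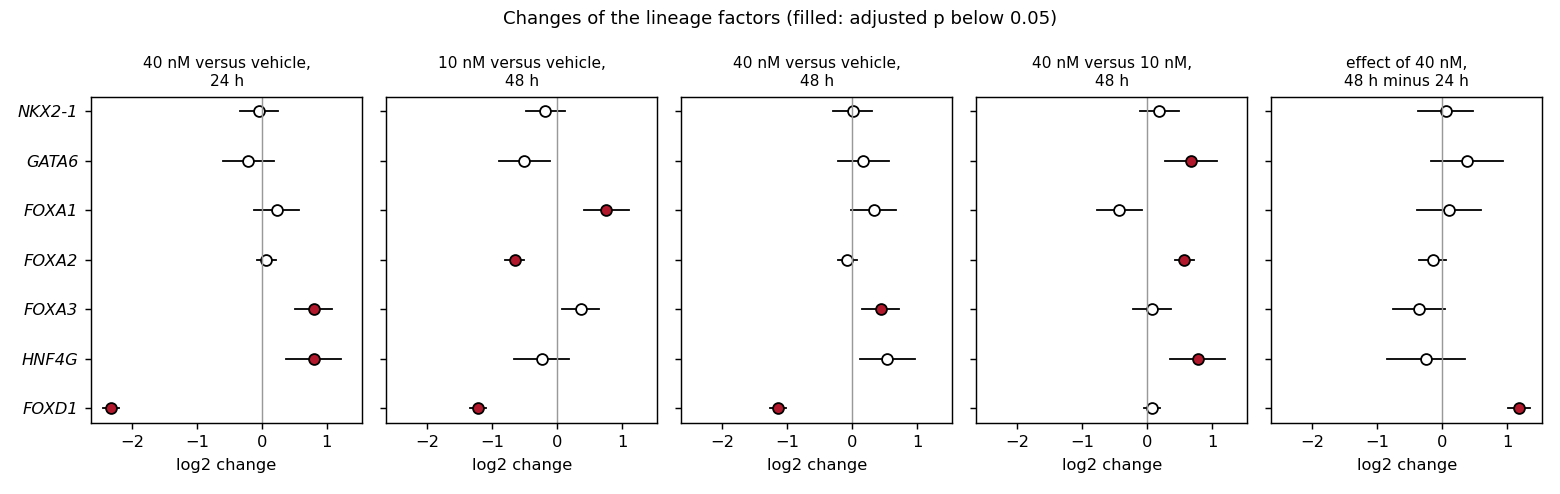
Log2 change of each factor (brightest probe set) with its 95% interval in the 5 comparisons; filled points have a limma adjusted p below 0.05. FOXD1 is filled in the 3 comparisons with vehicle and in the difference over time, at -2.32, -1.21, -1.14 and 1.18, and NKX2-1 is open in all 5.

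The counts over the 7 measured factors were set beside those over all 19775 genes. At 24 h and 40 nM 3 of 7 passed, with 31.5% of all genes passing; 2 rose (FOXA3, HNF4G) against 14.8% of genes, and 1 fell (FOXD1) against 16.7%. At 10 nM 3 of 7 passed, with 26.3% of genes; FOXA1 rose (14.4% of genes), and FOXA2 and FOXD1 fell (11.9% of genes). At 40 nM and 48 h 2 of 7 passed, with 21.3% of genes, FOXA3 upward (10.5%) and FOXD1 downward (10.7%). Between the doses 3 of 7 passed, with 26.4% of genes, and FOXA2, HNF4G and GATA6 were all higher at 40 nM (11.9% of genes were). For the difference over time 1 of 7 passed, with 17.3% of genes, and FOXD1 was in the upward direction that 9.18% of genes took (8.11% took the other). Counts over 7 genes this near the shares of all genes are no result about the factors as a group. The median change over all genes was within 0.02 of 0 in each comparison.

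The probe sets of a factor differed in brightness and in what they showed. Of 13 probe sets, 4 passed at 24 h with 40 nM, 6 at 10 nM and 2 at 40 nM at 48 h, against 21.1%, 19.1% and 12.5% of the 54613 probe sets. Between the doses 5 passed (18.7% of probe sets), of which the dim FOXA1 set was lower at 40 nM (-0.34) and the others were higher. For the difference over time 1 passed (9.57%). In no comparison did 2 probe sets of a factor pass in opposite directions. Signs differed between the sets of NKX2-1, FOXA1, FOXA2, GATA6 and HNF4G in 1 or more comparisons. For FOXA1 this was so only in the difference over time, at 0.10 for the brightest set and -0.29 for the other. Between the doses, for example, the brightest and dimmest sets gave 0.19 and -0.05 for NKX2-1, 0.57 and -0.04 for FOXA2, 0.68 and -0.16 for GATA6 and 0.78 and -0.04 for HNF4G.

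**Figure D4:**
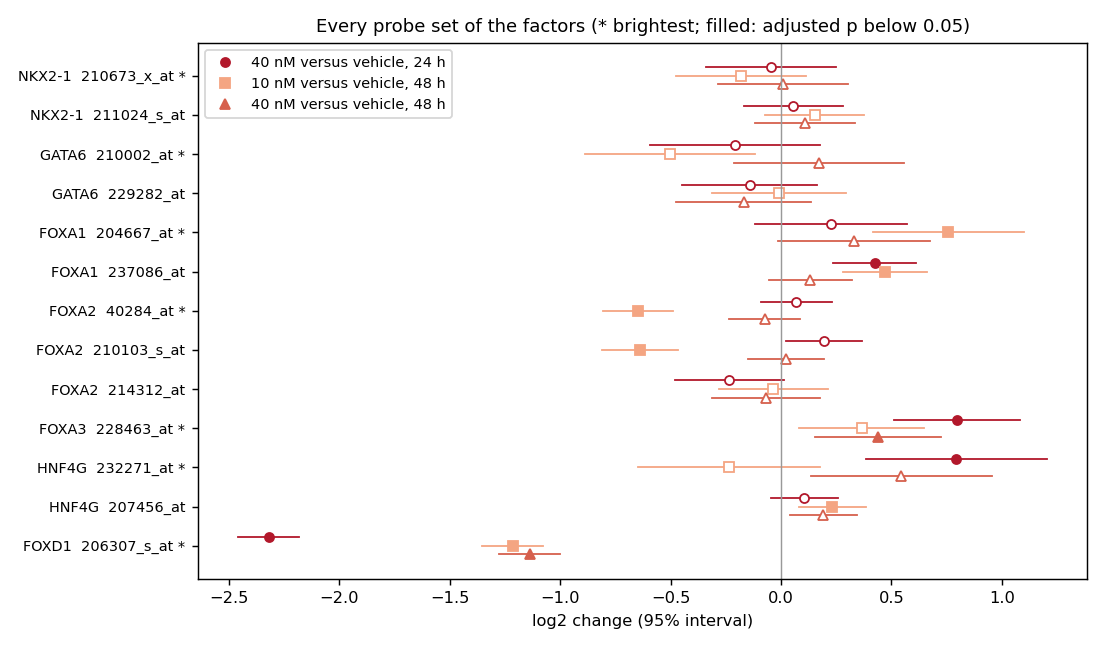
Log2 change with its 95% interval for all 13 probe sets in the 3 comparisons with vehicle (colours and shapes); a star marks the brightest of a gene and filled symbols passed over all probe sets. At 10 nM the 2 brighter FOXA2 probe sets lie together at -0.65 and -0.64 and the dimmest at -0.03; at 24 h the brightest HNF4G set lies at 0.79 and the other at 0.11.

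The vehicle groups of the 2 times are set side by side with no test, since the arrays of each time seem to have a scale of their own. Over all genes the median of the vehicle at 48 h minus that at 24 h was 0.35. HNF4G, FOXA2 and GATA6 stood above it, at 1.65, 1.44 and 1.02, and FOXA3 at 0.60. NKX2-1 was at 0.09. FOXD1 and FOXA1 were lower at 48 h, at -0.49 and -0.83. These place HNF4G at the 99.0th percentile of genes and FOXA1 at the 0.48th. How far the step between runs differs from gene to gene was not tested.

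Other genes of lung and endoderm identity were read from lists drawn up by known role, with earlier results of these data known. Their shares passing are to be read against the 31.5% of all genes that passed at 24 h, 26.3% at 10 nM and 21.3% at 40 nM and 48 h. Of 28 further lung and foregut factors, 6 rose and 6 fell at 24 h (median -0.08, all genes -0.01). At 10 nM 3 rose and 5 fell (median -0.04), and at 40 nM and 48 h 6 rose and 4 fell (median 0.003). The shares passing were 42.9%, 28.6% and 35.7%, against 31.5%, 26.3% and 21.3% of all genes. Of the 28, 13 were dim. EHF, an ETS factor of epithelium, rose in all 3, from 7.55 ± 0.12 (SD, n = 3) to 10.05 ± 0.11 at 24 h. Its rises were 2.49 ± 0.09, 2.02 ± 0.09 and 2.02 ± 0.09 (SE). ELF3, a related epithelial ETS factor, rose by 1.95 ± 0.07 at 24 h and by 0.57 ± 0.07 at 40 nM and 48 h, and was at 0.11 ± 0.07 at 10 nM. That last value depended on the probe set: it was 0.64 and passed without _x_at and _s_at sets, and 0.52 and passed with the mean of the ELF3 sets. ETV5 and ETV4, ETS factors downstream of FGF signalling in the lung, fell by 1.96 ± 0.07 and 1.10 ± 0.09 at 24 h. ETV5 fell less at 48 h, by 0.48 ± 0.07 at 10 nM and 0.64 ± 0.07 at 40 nM. The fall at 10 nM depended on the probe set. Another of its sets, read once _x_at and _s_at ones were left out, gave 0.53 and passed (limma adjusted p = 0.047). The mean of the ETV5 sets gave -0.08 and did not pass (0.47). ETV4 stood at -0.04 ± 0.09 and -0.22 ± 0.09 at 48 h, neither passing. Without _x_at and _s_at sets both ETV4 values were -0.32 and passed (adjusted p = 0.013 and 0.015). FOXP1, a forkhead repressor of lung epithelium, fell by 0.77 ± 0.07 at 24 h, 1.25 ± 0.07 at 10 nM and 0.90 ± 0.07 at 40 nM. RARB, a retinoic acid receptor, rose by 0.36 ± 0.07 at 24 h and fell by 1.45 ± 0.07 and 0.51 ± 0.07 at 48 h; with the mean of its probe sets the rise did not pass (0.11).

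Of 23 further gut and liver factors, 3 rose and 3 fell at 24 h, 5 rose and 2 fell at 10 nM, and 1 rose and 3 fell at 40 nM and 48 h, with medians of -0.05, 0.05 and 0.01. The shares passing, 26.1%, 30.4% and 17.4%, were near those of all genes, 31.5%, 26.3% and 21.3%. Of the 23, 9 were dim. PPARGC1A, the coactivator of mitochondrial and gluconeogenic genes, rose by 1.35 ± 0.13 at 24 h and by 1.61 ± 0.13 at 10 nM, and was at 0.08 ± 0.13 at 40 nM and 48 h. NR5A2, a nuclear receptor of liver and gut crypts, rose by 1.01 ± 0.06 at 10 nM and fell by 0.26 ± 0.06 at 40 nM and 48 h. The latter call was lost when vehicle replicate 3 (adjusted p = 0.051) or 40 nM replicate 1 (0.053) was left out. KLF4, a zinc finger factor of differentiated gut epithelium, fell by 0.47 ± 0.09, 0.42 ± 0.09 and 1.38 ± 0.09 in the 3 comparisons. It is read by an _s_at set, with no set free of _x_at and _s_at to check it.

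Of 15 further forkhead genes, 1 rose and 6 fell at 24 h, 3 rose and 5 fell at 10 nM, and 0 rose and 6 fell at 40 nM and 48 h (medians -0.11, 0.04 and -0.12). The shares passing were 46.7%, 53.3% and 40.0%, against 31.5%, 26.3% and 21.3% of all genes. Of the 15, 4 were dim, and the part of brightness in these shares was not tested. The closest relatives of FOXD1 on the array, FOXD2, FOXD3 and FOXD4, were dim, with means of 3.55, 3.95 and 4.47, and passed in none of the 3 comparisons with vehicle. FOXM1, the forkhead factor of mitotic genes, is read by an _x_at set, with no set free of _x_at and _s_at to check it. It fell by 1.44 ± 0.08 at 24 h and by 0.37 ± 0.08 at 10 nM. Its fall of 0.26 ± 0.08 at 40 nM and 48 h was lost under 8 alternatives, 6 of them each of the compared arrays left out in turn (adjusted p between 0.065 and 0.097). FOXS1 fell in all 3 comparisons, with changes of -0.81 ± 0.12, -1.81 ± 0.12 and -1.37 ± 0.12. FOXQ1, a forkhead factor of gastric epithelium, rose by 1.11 ± 0.07 at 10 nM, fell by 0.80 ± 0.07 at 40 nM and 48 h, and was at 0.09 ± 0.07 at 24 h.

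Of 21 measured genes listed as lung epithelial targets of NKX2-1, 2 rose and 1 fell at 24 h. At 10 nM 1 rose and 2 fell, and at 40 nM and 48 h 2 rose and 0 fell. Whether NKX2-1 drives each of them was not tested. The shares passing were 14.3%, 14.3% and 9.52%, against 31.5%, 26.3% and 21.3% of all genes. Of the 21, 11 were dim, where RMA compresses differences and leaves little room for a fall. The target lists had also been drawn up without genes already known as the largest changes of these data. Nothing is read from these small shares. The extremes were -0.63 and 0.62 at 24 h, -0.48 and 0.44 at 10 nM and -0.33 and 0.35 at 40 nM and 48 h.

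Of 30 liver genes known as targets of HNF4A and FOXA factors, 5 rose and 0 fell at 24 h (16.7% passed, against 31.5% of all genes). At 10 nM 3 rose and 1 fell, and at 40 nM and 48 h 6 rose and 0 fell (13.3% and 20% passed, against 26.3% and 21.3%). The medians were 0.04, 0.03 and 0.03. Of the 30, 20 were dim, and the same limit on how the list was drawn up holds. RBP4, the plasma carrier of retinol, rose from 4.55 to 6.49 at 24 h, by 1.94 ± 0.12, by 0.38 ± 0.12 at 10 nM and by 2.18 ± 0.12 at 40 nM and 48 h. Its call at 10 nM was lost with the mean of its probe sets and without any 1 of 4 arrays (adjusted p between 0.061 and 0.13). RBP4 is read by an _s_at set, with no set free of _x_at and _s_at to check it. AMBP, a plasma protease inhibitor precursor, rose by 2.50 ± 0.12, 1.60 ± 0.12 and 1.93 ± 0.12, and APOH, a plasma apolipoprotein, rose by 2.37 ± 0.13 at 24 h and 1.26 ± 0.13 at 40 nM and 48 h and was at -0.14 ± 0.13 at 10 nM. Both are read by an _x_at or _s_at set. Their other probe sets showed no such rise, with values of -0.19, -0.02 and -0.13 for AMBP and -0.001 and -0.04 for APOH at 24 h and 48 h. SERPINA6, the corticosteroid carrier of plasma, rose by 0.94 ± 0.15, 0.72 ± 0.15 and 1.16 ± 0.15. AFP, the fetal liver albumin relative, fell by 2.03 ± 0.12 at 10 nM and was at -0.13 ± 0.12 and 0.24 ± 0.12 at 40 nM.

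Of 27 gut epithelial markers, 5 rose and 0 fell at 24 h, 4 rose and 3 fell at 10 nM, and 6 rose and 2 fell at 40 nM and 48 h, with medians of 0.01, 0.0003 and 0.07. The shares passing were 18.5%, 25.9% and 29.6%, against 31.5%, 26.3% and 21.3% of all genes, and 16 of the 27 were dim. LIPH, a membrane lipase, rose by 1.24 ± 0.13, 1.81 ± 0.13 and 0.63 ± 0.13, and HKDC1, a hexokinase family gene, by 0.60 ± 0.06, 1.11 ± 0.06 and 0.63 ± 0.06. A1CF, the cofactor of APOB mRNA editing, rose by 1.12 ± 0.22 at 40 nM and 48 h and was at -0.08 ± 0.22 at 24 h and -0.25 ± 0.22 at 10 nM. ANPEP, an aminopeptidase of the brush border, fell by 1.29 ± 0.11 at 10 nM and 0.50 ± 0.11 at 40 nM and 48 h. Without _x_at and _s_at probe sets both its values were near 0, at -0.10 and -0.11.

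**Figure D5:**
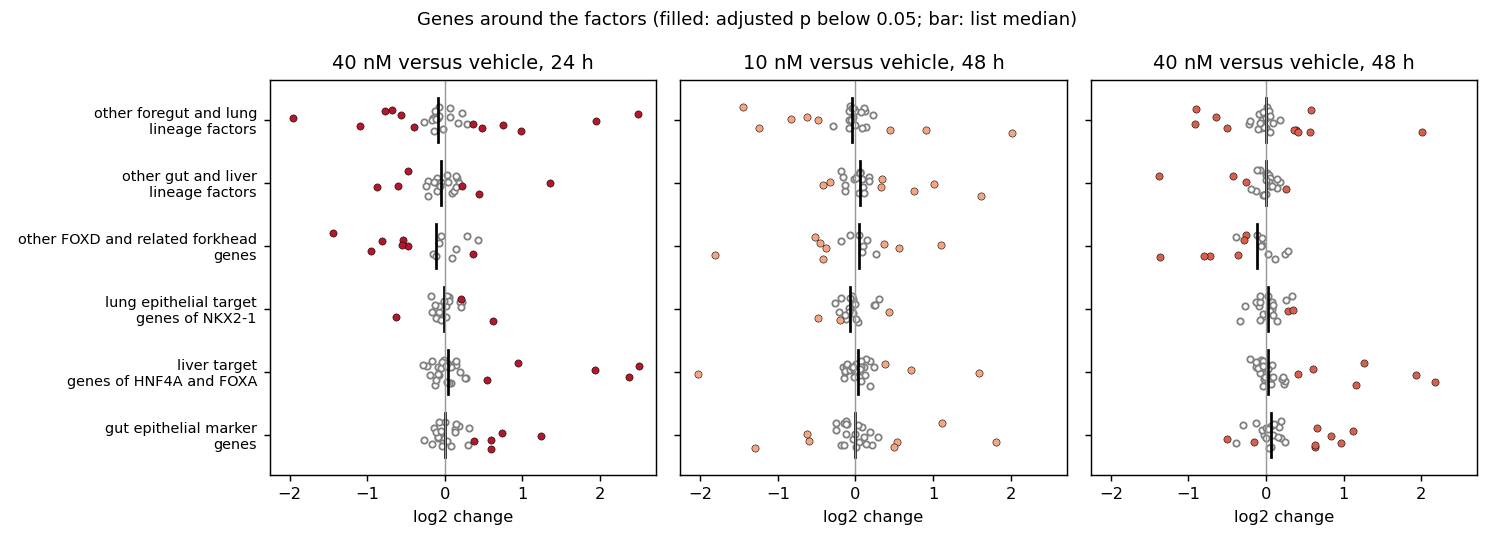
Log2 change of each measured gene of 6 lists around the factors (points, filled where limma adjusted p was below 0.05) and the list median (bar) in the 3 comparisons with vehicle. List medians lie between -0.12 and 0.07, and the genes listed as NKX2-1 targets, 11 of 21 of them dim, lie between -0.63 and 0.62.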

How the data were processed

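The deposited values are log2 expression levels. The submitters' processing notes name RMA and Affymetrix Expression Console; no version was found among the sources used here. The RMA method subtracts background, aligns the arrays' distributions and summarises probes, which compresses differences of dim probe sets. Depth has no meaning for arrays; their number limits the precision. Of 54675 probe sets, 62 controls were set aside, 41091 had 1 symbol, 1801 had several and 11721 have no name here. The gene ID gave a current symbol for 41037.

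Each gene was read from its brightest single-symbol probe set. With limma 3.58.1 under R 4.3.3, lmFit and eBayes estimated the 5 group means from all 15 arrays, with 10 residual degrees of freedom, two-sided p-values, Benjamini-Hochberg adjustment over all genes (or all probe sets) and a threshold of 0.05; the step was tested on simulated data. "±" after a change is the standard error. Genes named from a list passed and changed by at least 1.0 against vehicle, at most the 4 largest per list and comparison; the 3 nearest genes are given for a factor with such a change. Members and lists were chosen with earlier results of these data known, and the target lists left out genes that an earlier account named as its largest changes. Alternatives were normalization, dim filters, floor, probe set choice, variance model, array weights, replicate block and arrays left out; leaving out the 10 nM arrays was added after seeing the data.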

Additional observations from a re-analysis of the deposited data

Results flagged for a closer look

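The effect of 40 nM differed between 48 h and 24 h, by limma's test of the difference itself, for 1 of the 7 factors and 17 genes named beside them. For FOXD1 the difference, 48 h minus 24 h, was 1.18 (adjusted p = 6.3e-07), with falls of 2.32 and 1.14. The 3 genes of nearest profile, chosen for their likeness to FOXD1, had 0.88 (CCN2), 1.77 (NT5E) and 1.16 (ADAM19). Falls were also smaller at 48 h for ETV5 (1.32) and FOXM1 (1.18). ETV4 (0.87) fell at 24 h and did not pass at 48 h. Rises were smaller at 48 h for EHF (-0.48), ELF3 (-1.38), AMBP (-0.57), APOH (-1.11) and LIPH (-0.61). PPARGC1A (-1.27) rose at 24 h and did not pass at 48 h. KLF4 (-0.90) and FOXS1 (-0.55) fell further at 48 h. RARB (-0.87) rose at 24 h and fell at 48 h. FOXQ1 (-0.89) did not pass at 24 h and fell at 48 h. A1CF (1.20) did not pass at 24 h and rose at 48 h. Of these calls, 6 were lost under at least 1 alternative. That of FOXS1 was lost under 14 of 22 alternatives, LIPH under 12 of 23, AMBP under 10 of 23 and EHF under 3 of 23, of which 8, 8, 7 and 1 left out an array. APOH lost its call without _x_at and _s_at probe sets alone (-0.04), and A1CF with the replicate block alone (adjusted p = 0.062).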

How the results depend on the processing

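Of 35 results, 7 factors in 5 comparisons, 23 kept their side of the threshold under every alternative run and 12 changed side under at least 1; no called one turned its direction. FOXD1 kept its call and direction against vehicle wherever it was measured, from -2.35 to -2.29 at 24 h, -1.24 to -1.20 at 10 nM and -1.16 to -1.11 at 40 nM and 48 h; it and NKX2-1 have no value without _x_at and _s_at probe sets. The number of factors passing at 10 nM was 5 without the dimmest 40% of genes, with an intensity trend and robust prior, with array weights and with the compared groups alone. At 40 nM and 48 h it was 1 with array medians subtracted and without _x_at and _s_at probe sets, 4 with array weights and 1 to 2 with an array left out. For the difference over time it was 0 without _x_at and _s_at probe sets, 3 with array weights and 1 to 2 with an array left out. Array weights raised the genes passing to 8036 at 10 nM and 5851 for the difference over time; their estimation stopped before its tolerance was reached. Without _x_at and _s_at probe sets the sign turned for AMBP (-0.19 at 24 h, -0.0205 at 10 nM, -0.13 at 40 nM and 48 h, 0.0566 over time), APOH (-0.0009 at 24 h, -0.0422 at 48 h, -0.0169 between doses), ETV5 at 10 nM (0.53) and ANPEP between doses (-0.0087); with the mean of probe sets it turned for NT5E between doses (-0.0774). These read other probe sets by construction. Replicate numbers gave no steady pairing of the arrays. After group means were subtracted, 4 of 12 same-numbered pairs within a time had a correlation over 0.1 (range -0.41 to 0.29). With the replicate block 5638 genes passed at 24 h, 4516 at 10 nM, 3394 at 40 nM and 48 h, 4398 between doses and 2639 over time; FOXA3 no longer passed at 48 h (adjusted p = 0.064) and HNF4G did (0.042). Without the 10 nM arrays the same numbers of factors passed in the 40 nM comparisons.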
